A study of Mus musculus with 14 samples.

Results

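Dark zone germinal centre (GC) B cells carrying the SykY317F allele were compared with wild type (WT) dark zone GC B cells across all measured genes. The libraries were chosen by their genotype and zone labels, and they make up 7 of the 14 libraries of the series: 4 of WT cells (replicates 2, 3, 4 and 5) and 3 of SykY317F cells (replicates 1, 2 and 4). All cells came from popliteal lymph nodes of C57BL/6 chimeras in which 50% of cells were WT and 50% SykY317F, taken 14 days after immunization with NP-KLH, a hapten coupled to a carrier protein. Both genotypes were thus exposed to the same kind of host and antigen. The other 7 libraries, 4 WT and 3 SykY317F, hold light zone GC B cells and served to estimate the spread between libraries and to place the dark zone libraries between the zones. The age and sex of the mice are not given, and nothing in the labels ties a library to its own mouse or same-numbered libraries to a shared one, so p-values measure the spread between these libraries.

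In a germinal centre, B cells of the dark zone divide and mutate their antibody genes, and B cells of the light zone test the mutated receptor on antigen and seek help from T cells. Syk is the kinase that docks on the phosphorylated B cell receptor and passes the signal on to Blnk, Btk and Plcg2. The tyrosine exchanged in SykY317F is the site at which Cbl proteins, E3 ubiquitin ligases that mark signalling proteins for degradation, bind phosphorylated Syk. The comparison asks what dark zone cells express differently when that site is lost.

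The exchanged residue lies in exon 8 of Syk (chr13:52583173-52648792, plus strand, GRCm38). Its codon is shown because the allele alters it. The reference sequence around it in the transcripts Syk-201 and Syk-203 is printed here with the codon of the exchanged tyrosine in capitals (chr13:52631684-52631734, coding strand). The counts come from transcript 3′ ends, so the codon itself is not read in the tables used and the genotype could not be checked from them.
Syk exon 8, WT allele: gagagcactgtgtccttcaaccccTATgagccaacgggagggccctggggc

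Syk itself was expressed at the same order in every library. Its level was 593, 477, 467 and 529 CPM in WT replicates 2, 3, 4 and 5 and 627, 509 and 506 CPM in SykY317F replicates 1, 2 and 4, where CPM is the count of unique molecular identifiers (UMIs, 1 per captured transcript) scaled to 1000000 per library after TMM scaling, and libraries are given in this order throughout. The groups overlapped. The log2 fold change, SykY317F minus WT, was 0.08 ± 0.20 (SE; edgeR adjusted p = 1), with a 95% interval from -0.34 to 0.51. Among 52 tested genes within 5 Mb of Syk, 2 had an unadjusted edgeR p under 0.05 and were higher, 1 of them Gadd45g. This is 3.846% against 3.81% of all tested genes in either direction, and 0 were lower.

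No single gene passed the test between the genotypes. By edgeR's quasi-likelihood test with Benjamini-Hochberg adjustment, 0 of 7999 genes (0%) were higher and 0 (0%) lower in SykY317F at an adjusted p under 0.05, and the smallest adjusted p was 0.628. At an unadjusted p under 0.05, 305 genes (3.81%) stood out, of which 226 (2.83% of all tested) were higher and 79 (0.988%) lower. By mean CPM, 34 were higher and 5 lower under 10, 81 and 22 between 10 and 30, and 75 and 28 between 30 and 100. Between 100 and 300 CPM the counts were 25 and 19, and above 300 CPM 11 and 5. All 3 SykY317F libraries lay above all 4 WT libraries in 285 genes (3.56%) and below them in 185 (2.31%). The median log2 fold change over all genes was -0.04. DESeq2's Wald test on the same counts called C1qb and Trim12c higher and 0 genes lower, and limma voom with library quality weights called 0.

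These counts depend on single libraries. Without SykY317F replicate 2, 125 genes were higher and 206 lower at an unadjusted edgeR p under 0.05, and 85 of the higher and 41 of the lower genes were shared with the full comparison. Without WT replicate 3 the counts were 144 and 50, and without WT replicate 5 they were 307 and 124. The number called at an adjusted p under 0.05 was 0 without each library.

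**Figure D1:**
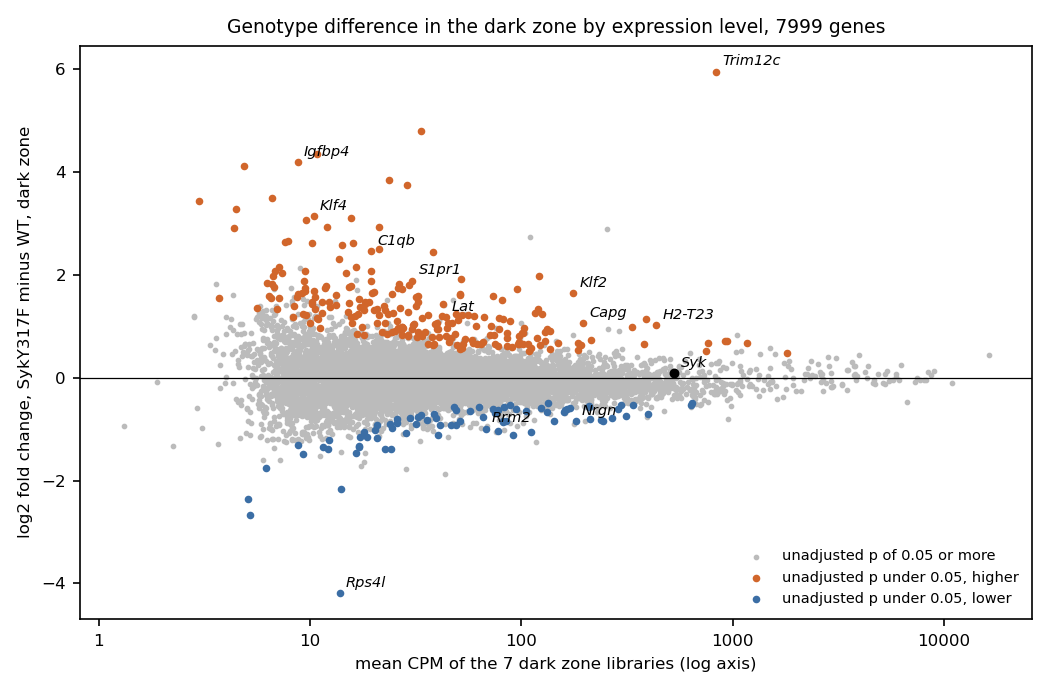
Log2 fold change, SykY317F minus WT, of the 7999 tested genes (vertical axis) against their mean CPM over the 7 dark zone libraries (horizontal log axis). Orange and blue points are the 226 higher and 79 lower genes at an unadjusted p under 0.05, grey points the others, and Syk (black) lies at 0.08.

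What the comparison could resolve varied with the expression level. The 95% interval of the log2 fold change lay within -1 to 1 for 3651 genes (45.6%). Among genes with a mean above 300 CPM this held for 416 of 489, between 30 and 100 CPM for 1830 of 2883, and under 10 CPM for 1 of 878. With 1 library left out at a time, the number of genes within -1 to 1 was lowest, 2362, without SykY317F replicate 1. With read counts in place of UMIs it was 2240. For most genes under 30 CPM the interval therefore did not exclude a change of 1 on the log2 scale. Depth ran from 747948 to 1767898 UMIs in WT and from 381954 to 1413310 UMIs in SykY317F dark zone libraries.

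Similarity between libraries overlapped within and between genotypes. Correlations of log2 CPM across genes, which are not independent replicates, ran from 0.856 to 0.970 among WT, from 0.882 to 0.914 among SykY317F and from 0.851 to 0.941 between them. SykY317F replicate 1 was closest to WT replicate 5 (0.938) and SykY317F replicate 2 to WT replicate 4 (0.941). In some genes WT replicate 5 broke the order of the genotypes. Hells, a chromatin remodeller of dividing cells, was at 24.6, 47.0, 29.4 and 2.51 CPM in WT and 0.726, 16.8 and 5.53 CPM in SykY317F, and Rgs13, a regulator of chemokine receptor signals in GC B cells, at 42.7, 107, 96.1 and 6.28 against 2.18, 32.3 and 16.6 CPM. In both genes WT replicate 5 lay among the SykY317F libraries, and the other WT libraries lay above every SykY317F library.

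SykY317F replicates 2 and 4 also held transcripts known from other organs and cells. These groups of genes were chosen after their values were seen. The 16 hepatocyte genes, led by albumin (Alb), summed to 645 UMIs in SykY317F replicate 2 and to between 11 and 23 UMIs in the other 6 dark zone libraries. Airway and alveolar genes (Scgb1a1, Sftpc, Sftpb, Cyp2f2, Cbr2) summed to 184 UMIs in SykY317F replicate 4 and to between 2 and 30 in the other 6. Mast cell protease genes (Cma1, Cpa3, Mcpt4, Tpsb2) summed to 288 UMIs in SykY317F replicate 2 and to at most 4 elsewhere.

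The number of reads behind each UMI separated these groups. The hepatocyte genes had 1.12 reads per UMI in SykY317F replicate 2, whose overall ratio was 2.33, and the airway genes 1.15 in replicate 4, whose overall ratio was 6.39. The mast cell genes, at 2.42 reads per UMI in replicate 2, were near their library's ratio. So were the C1q genes described further on, at 3.34, 2.44 and 7.71 reads per UMI in libraries with 2.91, 2.33 and 6.39. The part of these transcripts in the genotype differences was not tested, and values without replicate 2 are given where they bear on a result.

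**Figure D2:**
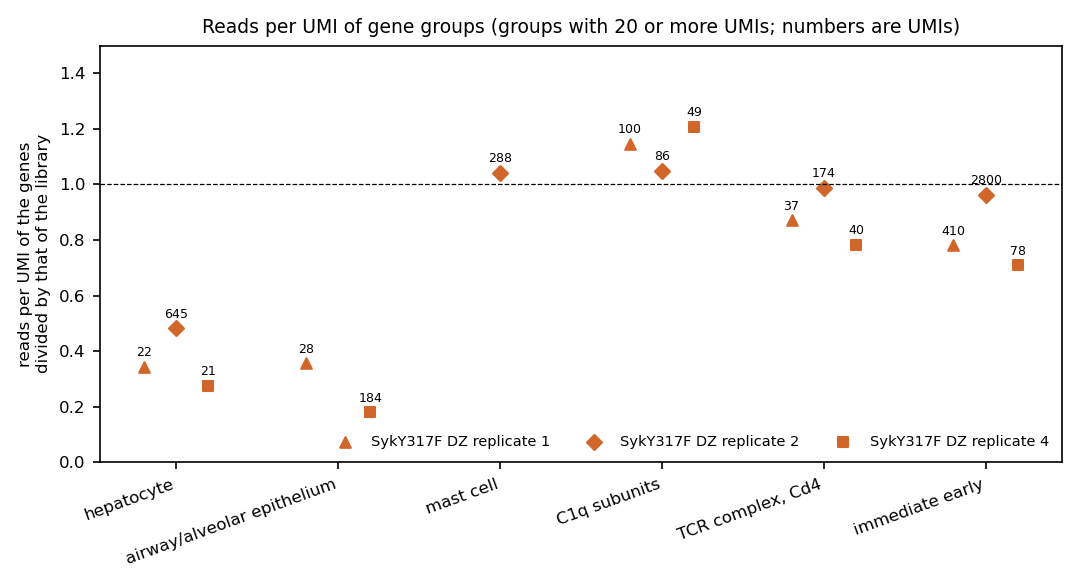
Reads per UMI of 6 gene groups divided by the reads per UMI of the whole library (vertical axis; dashed line, equal to the library) in the 3 SykY317F dark zone libraries, for groups with 20 or more UMIs, whose number stands above each point. Hepatocyte and airway genes, at 1.76 reads per UMI or fewer, lie far below their libraries' 2.33 to 6.39, while the mast cell, C1q, T cell and immediate early genes lie nearer to the dashed line.

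The genes with the smallest p among those higher in SykY317F included a pair that controls where lymphocytes go. Klf2, a transcription factor of resting lymphocytes (chr8:72319033-72321656), was at 137, 65.6, 84.5 and 83.5 CPM in WT and 253, 338 and 271 CPM in SykY317F. All 3 SykY317F libraries were above all 4 WT libraries, and the log2 fold change was 1.65 ± 0.38 (SE; edgeR adjusted p = 0.636; unadjusted p = 0.000477). Without replicate 2 it was 1.51 ± 0.43. S1pr1, the sphingosine 1-phosphate receptor by which lymphocytes leave lymph nodes and a known target of Klf2 (chr3:115710433-115715072), was at 19.4, 13.4, 14.2 and 11.3 CPM in WT and 35.6, 91.5 and 27.6 CPM in SykY317F. Its groups did not overlap either, and replicate 2 was far above the other SykY317F libraries. The log2 fold change was 1.89 ± 0.44 (SE; edgeR adjusted p = 0.628), and 1.16 ± 0.48 without replicate 2.

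The 3 chains of C1q, the complement component made by macrophages, were all among the 12 genes of smallest p on the higher side. C1qb was at 5.18, 4.47, 6.23 and 8.79 CPM in WT and 31.9, 18.8 and 60.8 CPM in SykY317F. In UMIs this was 4, 6, 7 and 14 against 44, 28 and 22, so the groups did not overlap on either scale. The log2 fold change of C1qb was 2.47 ± 0.55 (SE; edgeR adjusted p = 0.628), and 2.81 ± 0.58 without replicate 2. C1qc (log2 fold change 2.93 ± 0.72) and C1qa (2.59 ± 0.70), its neighbours on chromosome 4, had edgeR adjusted p-values of 0.663 and 0.766 and groups that did not overlap. Without replicate 2 their log2 fold changes were 3.14 ± 0.80 and 2.71 ± 0.77. Other macrophage genes were not shifted to the same extent: Lyz2 had a log2 fold change of 0.72 ± 0.59, Apoe of 0.18 ± 0.35 and Cd68 of 0.14 ± 0.38.

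**Figure D3:**
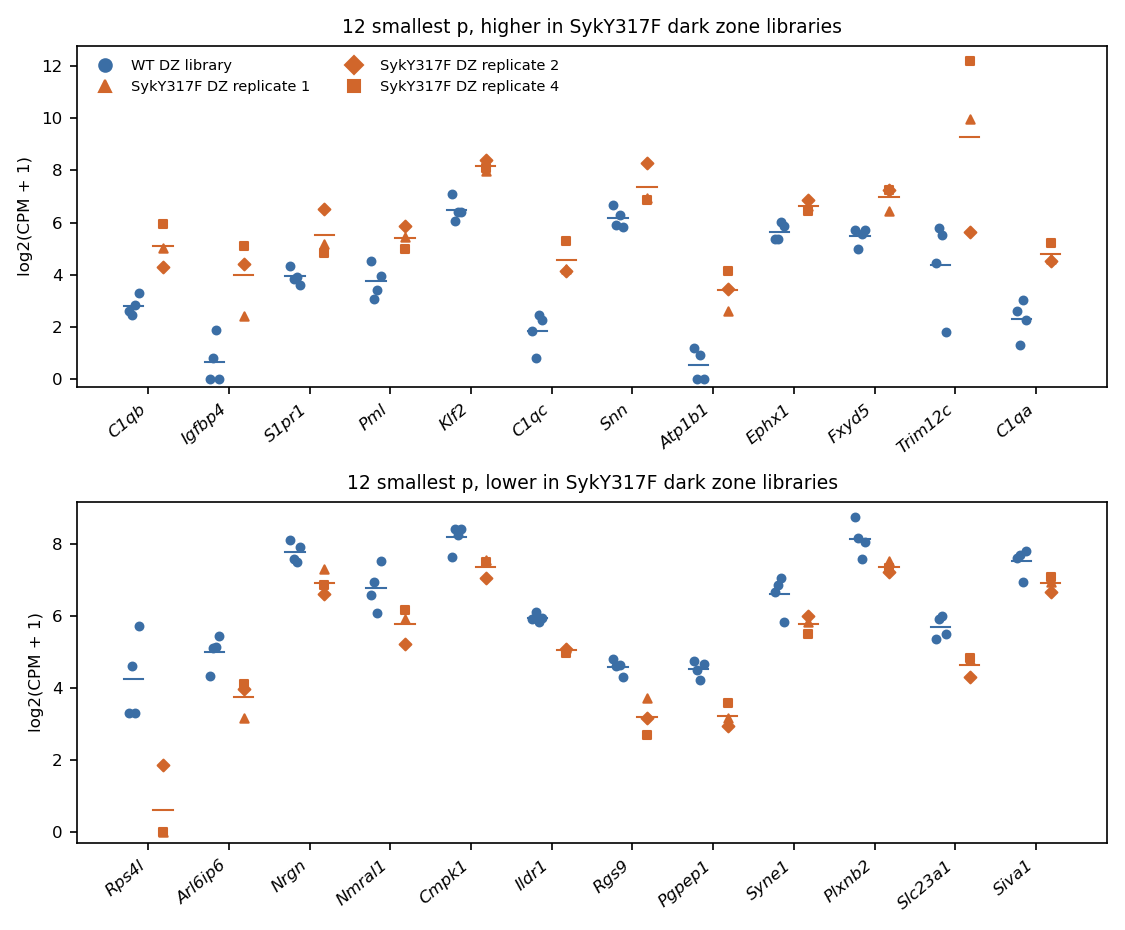
Values of the 24 genes with the smallest p, 12 higher (top) and 12 lower (bottom), as log2(CPM + 1) in each WT (blue) and SykY317F (orange; shape gives the replicate) dark zone library, with bars at the group means. Trim12c is the gene among the 12 higher whose groups overlap, with SykY317F replicate 2 inside the WT range.

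Trim12c, a member of the Trim5 family of restriction factors that recognise viral capsids, had the largest fold change among these genes and the most uneven values. It was at 20.7, 53.7, 44.5 and 2.51 CPM in WT and 1015, 49.1 and 4633 CPM in SykY317F. SykY317F replicates 1 and 4 were far above every WT library and replicate 2 was within the WT range. Its log2 fold change was 5.95 ± 1.36 (SE; edgeR adjusted p = 0.766), and 6.53 ± 1.05 without replicate 2. The gene is 1 of a cluster of near-identical copies on chromosome 7, and the rule by which reads were assigned among them is unknown here. Its reads per UMI were 5.54 and 11.8 in replicates 1 and 4, libraries with 2.91 and 6.39 overall.

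Igfbp4, which codes for a secreted protein that binds insulin-like growth factors, was counted with 0, 1, 3 and 0 UMIs in WT and 6, 30 and 12 UMIs in SykY317F. Atp1b1, a subunit of the sodium pump, had 2 UMIs over the 4 WT libraries and 28 over the 3 SykY317F libraries, a ratio of 21.0 after scaling with an exact binomial 95% interval from 5.29 to 182 that covers counting error only. In both genes every SykY317F library was above every WT library. Pml, the scaffold of nuclear bodies, was at 22, 7.46, 9.79 and 14.4 CPM against 42.1, 57.2 and 30.4 CPM, again without overlap. Igfbp4 and Pml had log2 fold changes of 4.19 ± 0.95 and 1.75 ± 0.41 (SE; edgeR adjusted p = 0.628 for both), and 4.05 ± 1.11 and 1.49 ± 0.49 without replicate 2.

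Further genes on the higher side had smaller fold changes. Ephx1, an epoxide hydrolase, was at 40.1, 40.3, 63.2 and 57.8 CPM in WT and 99.5, 115 and 85.7 CPM in SykY317F, a log2 fold change of 1.0 ± 0.25 (SE; edgeR adjusted p = 0.663). Capg, an actin filament capping protein, was at 157, 79.1, 109 and 191 CPM against 238, 294 and 310 CPM. Gimap3, a GTPase of lymphocytes, was at 76.4, 47.0, 86.3 and 82.3 CPM against 160, 151 and 113 CPM. None of these genes had groups that overlapped, and none passed the adjustment. Snn (log2 fold change 1.35 ± 0.34) and Fxyd5 (1.51 ± 0.39), a regulator of the sodium pump, completed the 12 genes of smallest p. Without replicate 2 these were 0.70 ± 0.32 for Snn and 1.35 ± 0.44 for Fxyd5. Snn and Atp1b1 overlap genes on the opposite strand, and whether counting used strand is unknown here.

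On the lower side, fewer genes had an unadjusted p under 0.05 in the full comparison (79 against 226), but more did without SykY317F replicate 2 (206 against 125) and with limma voom (635 against 582), and 45% of all genes had a log2 fold change above 0. Rps4l, annotated as a transcribed processed pseudogene and a copy of a ribosomal protein gene, stood apart with 7, 32, 10 and 83 UMIs in WT and 0, 4 and 0 UMIs in SykY317F. Its groups did not overlap, its log2 fold change was -4.19 ± 0.95 (SE; edgeR adjusted p = 0.628), and reads from its parent gene could be split with it. Without replicate 2 the SykY317F libraries held 0 UMIs of it. Nrgn, which codes for the calmodulin-binding protein neurogranin, was at 277, 193, 182 and 244 CPM in WT and 158, 97.5 and 116 CPM in SykY317F. Cmpk1, a kinase that makes pyrimidine nucleotides, was at 202, 345, 307 and 341 CPM against 188, 134 and 182 CPM. The groups of both genes were separate, with log2 fold changes of -0.85 ± 0.26 and -0.84 ± 0.27 (SE; edgeR adjusted p = 0.766 for both), and of -0.69 ± 0.30 and -0.69 ± 0.31 without replicate 2.

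Further lower genes differed in how tightly their libraries lay. Ildr1, a receptor of tricellular junctions, was at 59.5, 69.4, 57.0 and 61.5 CPM in WT and 34.1, 33.0 and 30.4 CPM in SykY317F. Lmnb1, a lamin of the nuclear envelope, was at 179, 170, 141 and 212 CPM against 80.6, 106 and 111 CPM. Plxnb2, a semaphorin receptor that guides GC B cells, was at 430, 286, 193 and 267 CPM against 186, 149 and 163 CPM. These 3 genes had groups that did not overlap, log2 fold changes of -0.92 ± 0.31, -0.83 ± 0.31 and -0.82 ± 0.29, and edgeR adjusted p-values of 0.818, 0.994 and 0.899. Arl6ip6, Rgs9, Pgpep1 and Slc23a1 were also lower without overlap, and Nmral1, Syne1 and Siva1 with overlap.

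The components that surround Syk in the receptor cascade were close to equal. Of 25 tested genes of the proximal cascade, 16 were higher and 9 lower, the median log2 fold change was 0.08 against -0.04 over all genes, and the 95% interval lay within -1 to 1 for 16. Cd79a, a signalling chain of the receptor, had a log2 fold change of 0.17 ± 0.22, Blnk of -0.21 ± 0.24, Btk of 0.04 ± 0.31 and Plcg2 of -0.22 ± 0.21. At an unadjusted p under 0.05, 2 of the 25 were higher, against 2.83% of all genes, among them Sh3bp2, an adaptor that binds Syk. Sh3bp2 was at 45.3, 27.6, 20.5 and 25.1 CPM in WT and 43.6, 86.1 and 33.2 CPM in SykY317F, with overlap. Without replicate 2, 0 of the 25 had an unadjusted p under 0.05.

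The ligases whose docking site the allele removes were low and scattered. Cbl was at 34.9, 70.1, 69.4 and 9.42 CPM in WT and 18.1, 41.7 and 13.8 CPM in SykY317F, and Cblb at 10.4, 23.9, 16.9 and 1.88 CPM against 1.45, 18.2 and 0 CPM. For both genes WT replicate 5 was low together with SykY317F replicates 1 and 4, and the groups overlapped. Fold changes on the log2 scale were -0.81 ± 0.58 for Cbl and -0.75 ± 0.99 for Cblb (SE; edgeR adjusted p = 1 for both), and both intervals reached beyond -1. Without replicate 2 they were -1.46 ± 0.69 and -3.43 ± 1.38 (edgeR unadjusted p = 0.0481 and 0.0214, adjusted p = 1 for both). With 1 dark zone library left out at a time, Cbl ran from -1.46 to -0.53 (without WT replicate 3) and Cblb from -3.43 to -0.21 (without SykY317F replicate 1); without WT replicate 5, Cbl was at -1.13 ± 0.44 (edgeR unadjusted p = 0.0178, adjusted p = 0.795).

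Inhibitory receptors and phosphatases held 3 of 21 tested members at an unadjusted p under 0.05, all higher, against 2.83% of all genes. Ptpn22, a phosphatase that dampens antigen receptor signals, was at 5.18, 2.98, 9.79 and 2.51 CPM in WT and 14.5, 33.6 and 27.6 CPM in SykY317F. Pirb, an inhibitory receptor for MHC class I, was at 36.2, 18.6, 38.3 and 37.1 CPM against 61.0, 91.5 and 47.0 CPM. Cd72, an inhibitory coreceptor of B cells, was at 287, 292, 357 and 290 CPM against 466, 601 and 370 CPM. In each of the 3 genes every SykY317F library was above every WT library. The log2 fold changes were 2.30 ± 0.67, 1.07 ± 0.34 and 0.65 ± 0.25 (SE; edgeR adjusted p-values 0.766, 0.766 and 1), and the list's median was 0.00. Without SykY317F replicate 2, 2 members were higher and 1 lower at that threshold. The log2 fold changes of Ptpn22, Pirb and Cd72 were then 1.97 ± 0.79, 0.76 ± 0.39 and 0.45 ± 0.28. Without WT replicate 4, 5 members were higher at that threshold.

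Genes that the receptor switches on within minutes to hours were all higher on average, and 1 library carried them. All 17 tested members of the early response list had a log2 fold change above 0, with a median of 1.16, and 6 had an unadjusted p under 0.05, against 2.83% of all genes on the higher side. Nr4a1, a nuclear receptor used as a reporter of receptor signalling, was at 63.4, 20.9, 36.5 and 15.1 CPM in WT and 10.9, 617 and 2.76 CPM in SykY317F. Egr3, a zinc finger factor of the same response, was at 12.9, 7.46, 4.45 and 3.77 CPM against 8.71, 69.3 and 8.29 CPM. Replicate 2 was the high library in both genes, and for Nr4a1 the other SykY317F libraries were below every WT library. Without replicate 2 the list's median was 0.02, 9 members were higher and 8 lower, and 0 had an unadjusted p under 0.05. Without replicate 4 that number was 12, and without WT replicate 3 it was 3. The immediate early genes of replicate 2 summed to 2800 UMIs with 2.24 reads per UMI, near the library's 2.33.

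The same library also stood apart in its position between the zones. Log2 CPM averaged over a light zone programme of 34 genes, minus that over a dark zone programme of 18 genes, ran from -1.92 to -1.37 in WT dark zone libraries and was -1.44 and -1.52 in SykY317F replicates 1 and 4. It was -0.31 in SykY317F replicate 2, between the other dark zone libraries and the 7 light zone libraries, which ran from -0.09 to 0.66. The light zone programme shares genes with the early response list, among them Nr4a1 and Egr3. The position of replicate 2 is therefore not independent of its early response genes. Cd79a, a marker of B cells in general, and the GC B cell genes Bcl6 and S1pr2 were detected in each of the 7 dark zone libraries. The dark zone list holds genes picked from earlier zone comparisons of these samples, so its level separates the zones by choice and is no independent check of the sort. The surface proteins by which zones are usually sorted were less clear at the RNA level. Cxcr4, the chemokine receptor of dark zone cells, was at 325, 139, 149 and 190 CPM in WT and 256, 236 and 337 CPM in SykY317F, with a log2 fold change of 0.46 ± 0.32 (SE; edgeR adjusted p = 1).

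**Figure D4:**
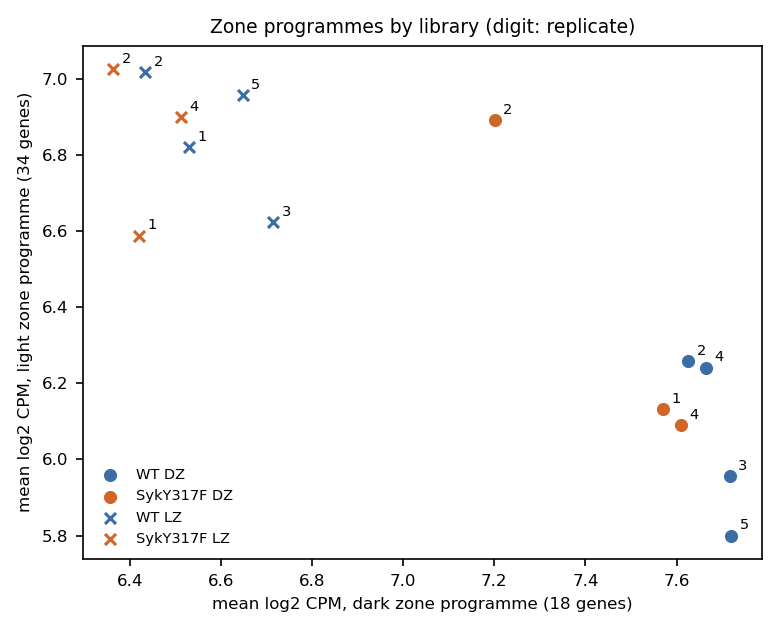
Mean log2 CPM of the light zone programme (34 genes, vertical axis) against that of the dark zone programme (18 genes, horizontal axis) for all 14 libraries; circles are dark zone and crosses light zone libraries, blue WT and orange SykY317F, with the replicate number. SykY317F dark zone replicate 2 lies apart from the other 6 dark zone libraries, at 6.89 on the vertical axis where they lie between 5.80 and 6.26.

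Within the light zone programme 26 of 34 genes were higher, with a median log2 fold change of 0.28, and 6 were higher at an unadjusted p under 0.05, against 2.83% of all genes; without replicate 2 these values were 20 of 35, 0.08 and 1, and without WT replicate 2 the last was 10. Gadd45g, a growth arrest and stress gene, was at 44.0, 24.6, 43.6 and 41.4 CPM in WT and 66.8, 108 and 88.5 CPM in SykY317F, without overlap. Gadd45g lies within 5 Mb of Syk, and whether this bears on its difference was not tested. Ccnd2, the D-type cyclin of light zone cells that prepare to divide, was at 6.47, 1.49, 16 and 6.91 CPM against 15.2, 41.0 and 22.1 CPM, with overlap. Their log2 fold changes were 1.20 ± 0.35 and 1.79 ± 0.53 (SE; edgeR adjusted p = 0.766 for both). Cd83 (0.40 ± 0.26) and Cd86 (-0.67 ± 0.54), surface markers of light zone cells, had opposite signs.

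Genes of resting, naive and memory B cells formed the B cell list with the most members at an unadjusted p under 0.05. Of 22 tested, 19 were higher with a median log2 fold change of 0.66, and 10 were higher at that threshold, against 2.83% of all genes. Beside Klf2 and S1pr1 these included Klf4, a factor that holds B cells at rest, at 1.29, 1.49, 6.23 and 0.628 CPM in WT and 2.90, 46.4 and 13.8 CPM in SykY317F. Replicate 2 was highest, and the groups overlapped. Without replicate 2, 2 of 23 members remained under an unadjusted p of 0.05, the median was 0.41, and Klf4 had a log2 fold change of 1.47 ± 1.11, against 3.14 ± 0.90 with all libraries. Without WT replicate 3 the number was 5.

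Bcl2, the survival protein that GC B cells shut off, was at 9.06, 5.97, 15.1 and 4.40 CPM in WT and 29.0, 58.5 and 13.8 CPM in SykY317F. Replicate 4 lay within the WT range. The log2 fold change was 2.07 ± 0.61 (SE; edgeR adjusted p = 0.766), and 1.44 ± 0.66 without replicate 2. The BCL2 and cell death list as a whole, Bcl2 included, was split, with 13 of 25 higher and a median of 0.03. Bmf, a BH3-only killer protein, was at 55.7, 67.1, 55.2 and 53.4 CPM against 45.0, 29.6 and 38.7 CPM, lower without overlap.

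Most genes that define the GC state were on the lower side. Of 24 tested, 21 were lower, the median log2 fold change was -0.29, and 3 had an unadjusted p under 0.05, against 0.988% of all genes, among them Nrgn and Bcl6. Bcl6, the master transcription factor of GC B cells, was at 293, 401, 394 and 477 CPM in WT and 311, 279 and 216 CPM in SykY317F, with overlap. Its log2 fold change was -0.53 ± 0.24 (SE; edgeR adjusted p = 1), and -0.56 ± 0.29 without replicate 2. The number of members at an unadjusted p under 0.05 was 1 without SykY317F replicate 4, WT replicate 3 or WT replicate 4. The list's mean log2 CPM was 7.77, 7.94, 7.88 and 7.17 in WT and 7.28, 7.38 and 7.37 in SykY317F, so WT replicate 5 lay below every SykY317F library.

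Among other GC genes, S1pr2, which keeps GC B cells in the follicle, was at 550, 622, 607 and 538 CPM in WT and 513, 361 and 437 CPM in SykY317F, lower without overlap. Gcsam, an adaptor of GC B cells, was at 171, 235, 258 and 102 CPM against 123, 106 and 127 CPM, with overlap through WT replicate 5. Foxo1, the factor that sustains the dark zone, was at 194, 228, 224 and 136 CPM against 148, 210 and 160 CPM. Their log2 fold changes were -0.41 ± 0.25, -0.69 ± 0.38 and -0.17 ± 0.22. Of 18 tested members of the dark zone programme, 15 were lower, with a median of -0.34, or of -0.15 without replicate 2.

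Cell cycle genes were lower in most members, with single log2 fold changes down to -1.64 in the S phase list and -1.21 in the mitosis list. In the list of S phase and DNA replication 38 of 43 tested genes were lower with a median log2 fold change of -0.45, and in that of G2 and mitosis 53 of 55 with a median of -0.36, against -0.04 over all genes. Averaged over the S phase list, log2 CPM was 6.33, 6.51, 6.19 and 6.30 in WT and 6.00, 5.85 and 5.86 in SykY317F. All 3 SykY317F libraries were below all 4 WT libraries. For G2 and mitosis the means were 5.69, 6.16, 5.89 and 5.66 against 5.41, 5.37 and 5.70, with replicate 4 inside the WT range. Members of such lists vary together, so these counts do not stand for independent genes. Without replicate 2 the medians were -0.38 and -0.22. In the list of Myc, G1 cyclins and E2F, 19 of 26 tested genes were lower, with a median of -0.15. Its mean log2 CPM was 5.55, 5.58, 5.58 and 5.56 in WT and 5.52, 5.47 and 5.49 in SykY317F, also without overlap. Without replicate 2, 15 of its 26 genes were lower, with a median of -0.14.

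Single cell cycle genes reached an unadjusted p under 0.05 in 7 members of the S phase list and 2 of the mitosis list, all lower, against 0.988% of all genes. Rrm2, a subunit of the enzyme that makes deoxynucleotides, was at 60.8, 106, 103 and 72.2 CPM in WT and 42.1, 39.7 and 49.8 CPM in SykY317F, without overlap. Mcm2, a subunit of the replicative helicase, was at 184, 195, 181 and 230 CPM against 151, 108 and 135 CPM, also without overlap. Pcna, the sliding clamp of DNA polymerases, was at 211, 454, 414 and 425 CPM against 253, 211 and 213 CPM, where WT replicate 2 lay with the SykY317F libraries. The log2 fold changes were -0.99 ± 0.41, -0.59 ± 0.26 and -0.74 ± 0.32 (SE; edgeR adjusted p = 1 for each). The 7 of the S phase list became 2 without SykY317F replicate 2, without SykY317F replicate 4 or without WT replicate 3, 3 without WT replicate 5 and 4 without SykY317F replicate 1. The 2 of the mitosis list became 5 without SykY317F replicate 4 and 0 without SykY317F replicate 1.

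**Figure D5:**
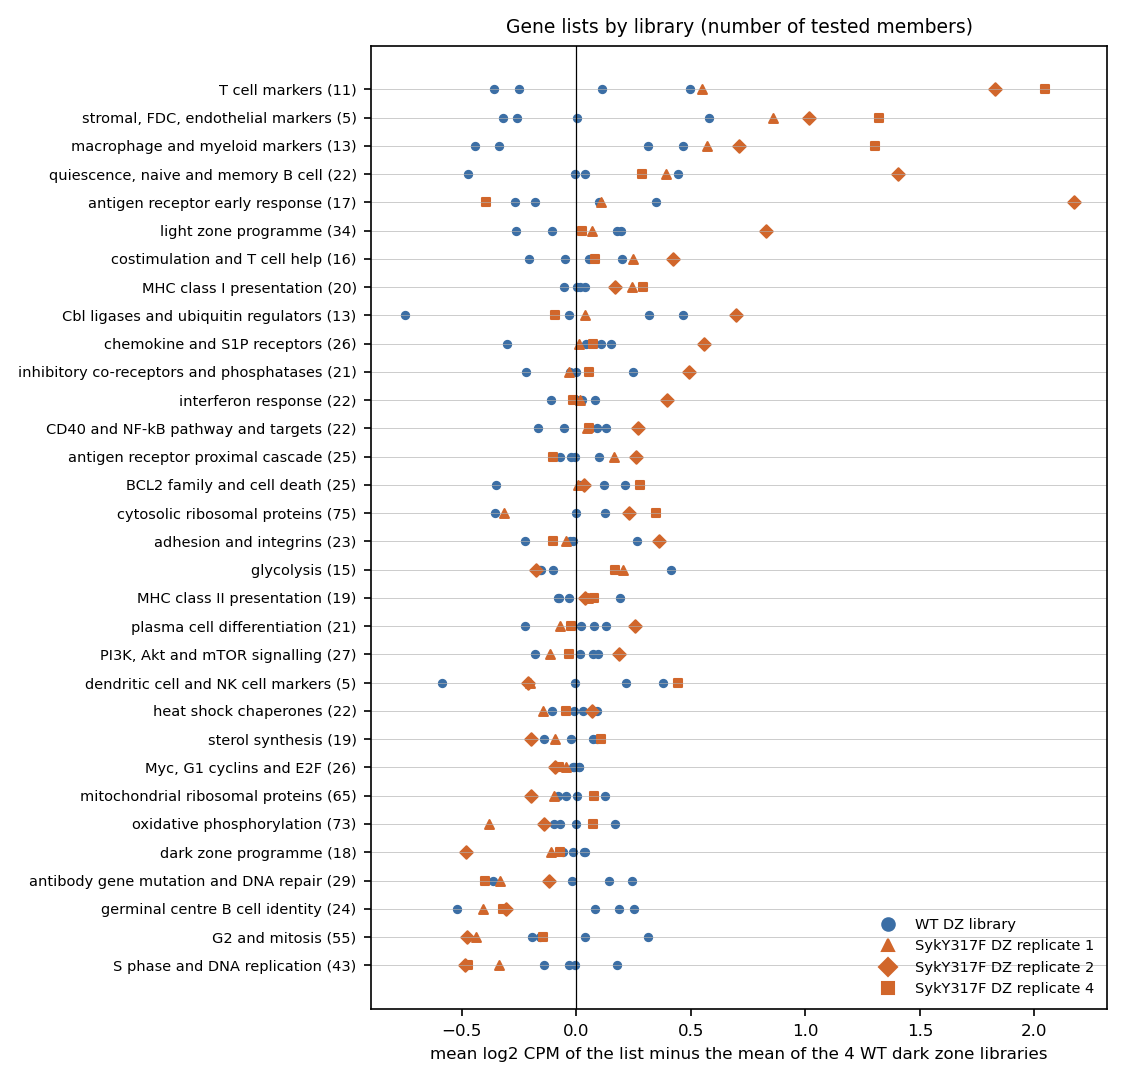
Mean log2 CPM of the tested members of each gene list (number in brackets) minus the mean of the 4 WT dark zone libraries, for each WT (blue) and SykY317F (orange; shape gives the replicate) library. T cell, stromal and macrophage markers are above every WT library in all 3 SykY317F libraries, as are MHC class I genes unless B2m is left out. The lists of S phase, of the dark zone programme and of Myc, G1 cyclins and E2F are below every WT library in all 3. Early response genes are displaced in replicate 2.

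DNA repair and energy genes leaned the same way. Of 29 tested genes of antibody gene mutation and DNA repair, 25 were lower with a median of -0.27, and 3 had an unadjusted p under 0.05, against 0.988% of all genes on the lower side, among them Pcna and Lig1, the ligase that joins Okazaki fragments. Without SykY317F replicate 4 that number was 0, and without SykY317F replicate 2, WT replicate 3 or WT replicate 4 it was 1. Of 73 genes of oxidative phosphorylation, 59 were lower with a median of -0.23 and 57 had a 95% interval within -1 to 1. The median was -0.10 without WT replicate 5 or without SykY317F replicate 1, and the list's mean log2 CPM was 7.91, 8.15, 7.98 and 7.88 in WT and 7.60, 7.84 and 8.05 in SykY317F, with replicate 4 inside the WT range. Cox6b1, a subunit of cytochrome c oxidase, was the only one of the 73 at an unadjusted p under 0.05, at 702, 869, 730 and 612 CPM in WT and 367, 619 and 534 CPM in SykY317F, with overlap. Mitochondrial ribosomal proteins were lower in 49 of 65, with a median of -0.16; without WT replicate 5, 32 were higher and 32 lower with a median of 0.008, and without SykY317F replicate 2 the median was -0.04. Cytosolic ribosomal proteins were higher in 47 of 75, with a median of 0.07, and their scatter across libraries was wider than that. Without SykY317F replicate 4, 24 of 76 were higher with a median of -0.08. Without SykY317F replicate 1, 65 of 76 were higher with a median of 0.22.

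For MHC class I presentation, the order of the libraries depended on how the list was summarised. Its mean log2 CPM over 20 tested genes was 7.95, 7.89, 7.96 and 7.98 in WT and 8.19, 8.11 and 8.24 in SykY317F, without overlap, while the median log2 fold change of its members was 0.09 with 13 higher and 7 lower. H2-Q4, a non-classical class I chain, was at 12.9, 16.4, 10.7 and 20.1 CPM in WT and 32.7, 24.9 and 41.5 CPM in SykY317F, without overlap. H2-K1, a classical class I chain, was at 1458, 1245, 1518 and 1967 CPM against 2375, 2240 and 1902 CPM, with overlap through WT replicate 5. Their log2 fold changes were 1.07 ± 0.33 and 0.49 ± 0.21 (SE; edgeR adjusted p-values 0.766 and 1). B2m, the invariant light chain, was at 93.6 CPM in WT replicate 5 and between 1059 and 2855 CPM in the other 6 libraries. Without B2m, a choice made after seeing the data, the mean was 8.06 in WT replicate 5 and 7.94 in SykY317F replicate 2, so the groups overlapped. Summed CPM also overlapped, at 14159 in WT replicate 5 and between 13421 and 13592 in SykY317F. Members at an unadjusted p under 0.05 numbered 3, and 5 without WT replicate 5. Class I genes form a family of similar copies, so reads may be split among them.

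Costimulation and cytokine receptors held 4 of 16 tested genes at an unadjusted p under 0.05, all higher, against 2.83% of all genes. They included both chains of the interleukin 10 receptor. Il10rb was at 18.1, 20.9, 28.5 and 21.4 CPM in WT and 37.8, 71.3 and 38.7 CPM in SykY317F, and Il10ra at 59.5, 36.5, 36.5 and 41.4 CPM against 79.9, 133 and 77.4 CPM. Cd274, the ligand PD-L1, was at 3.88, 1.49, 8.01 and 2.51 CPM against 9.44, 24.2 and 16.6 CPM. In each of these genes the groups did not overlap. The log2 fold changes were 1.17 ± 0.36 for Il10rb, 1.19 ± 0.39 for Il10ra and 2.09 ± 0.65 for Cd274 (SE; edgeR adjusted p-values 0.766, 0.771 and 0.766). The list's median was 0.11, and without replicate 2 the number was 2.

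Other pathways had medians close to that of all genes. They were -0.07 for PI3K, Akt and mTOR signalling, 0.08 for CD40 and NF-kB, -0.02 for plasma cell differentiation, 0.10 for chemokine and sphingosine phosphate receptors, -0.14 for adhesion, 0.05 for MHC class II and 0.09 for the interferon response. Without WT replicate 5 the medians were 0.19 for MHC class II, 0.19 for the interferon response and 0.25 for chemokine and sphingosine phosphate receptors, against 0.01 over all genes. Of 26 tested chemokine and sphingosine phosphate receptor genes, 4 were higher at an unadjusted edgeR p under 0.05, against 2.83% of all genes. Without SykY317F replicate 2 that number was 1. Sesn1, a stress-induced brake on mTOR, was at 66.0, 51.5, 70.3 and 32.0 CPM in WT and 82.8, 179 and 94.0 CPM in SykY317F, without overlap. Irf4, the factor that starts plasma cell differentiation, was at 46.6, 24.6, 44.5 and 26.4 CPM against 32.7, 172 and 33.2 CPM, high in replicate 2 alone. Myc, the growth regulator of positively selected cells, was at 37.5, 10.4, 20.5 and 28.9 CPM against 34.1, 59.2 and 24.9 CPM, again with overlap. Their log2 fold changes were 1.14 ± 0.38, 1.24 ± 0.63 and 0.77 ± 0.43 (SE; edgeR adjusted p-values 0.818, 1 and 1).

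Markers of other cells were on the higher side in SykY317F. Of 11 tested T cell markers 10 were higher with a median log2 fold change of 2.14, and 7 had an unadjusted p under 0.05, against 2.83% of all genes. Summed over the 16 markers in the table they came to between 150 and 228 CPM in WT and between 248 and 520 CPM in SykY317F. All 3 SykY317F libraries were above all 4 WT libraries in 4 of the 11 tested markers, against 3.56% of all genes. The chains of the T cell receptor complex and Cd4, 5 genes, summed to 7.77, 5.97, 31.1 and 5.65 CPM in WT. In SykY317F they summed to 26.9, 117 and 111 CPM, with overlap through WT replicate 4. Cd4, the coreceptor of helper T cells, was at 1.29, 0.746, 3.56 and 3.14 CPM in WT and 5.81, 20.9 and 19.4 CPM in SykY317F, without overlap. Cd3g, a chain of the T cell receptor complex that the filter removed, had 0, 0, 3 and 0 UMIs against 10, 15 and 11, a ratio of 18 after scaling with an exact binomial 95% interval from 5.68 to 91.2. Lat, a T cell adaptor, was at 34.9, 16.4, 25.8 and 35.2 CPM against 51.5, 57.8 and 85.7 CPM, also without overlap. Without replicate 2 the list's median was 1.86 with 6 of 11 at that threshold. Over all 24 alternative runs, in which the tested members can differ, the median ran from 0.68 to 2.91.

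Macrophage markers were higher in 11 of 13, with a median of 0.42, and 4 were higher at an unadjusted p under 0.05, against 2.83% of all genes: the 3 C1q chains and Hmox1, the haem-degrading enzyme of macrophages. The order of the libraries depended on how the macrophage list was summarised. Summed over 19 markers, macrophage RNA overlapped between the genotypes, from 1455 to 3237 CPM in WT and from 1855 to 3312 CPM in SykY317F. Mean log2 CPM over the 13 tested markers was 4.66, 4.55, 5.46 and 5.31 in WT. In SykY317F it was 5.57, 5.71 and 6.30, without overlap. The filter removed further macrophage markers. Vcam1 had 1, 1, 5 and 0 UMIs against 2, 10 and 3, and Axl 0, 0, 4 and 3 against 5, 8 and 3. Ctsl had 3, 1, 6 and 5 UMIs against 7, 15 and 2. Itgam had 0, 0, 9 and 1 UMIs against 2, 5 and 4, and Ms4a7 1, 1, 1 and 6 against 3, 0 and 2. Csf1r, also removed, had 2, 9, 27 and 9 UMIs in WT and 7, 9 and 0 in SykY317F. The library with 0 UMIs of Csf1r, SykY317F replicate 4, had the highest C1qb level and the lowest depth of the dark zone libraries. There 3 UMIs equal 8.29 CPM, so 0 UMIs does not show absence. Stromal, follicular dendritic and endothelial markers, 9 genes in the table, summed to between 106 and 231 CPM in WT and to between 232 and 287 CPM in SykY317F, and all 5 tested were higher. Their part in the gene differences, for Klf2 and S1pr1 in particular, which T cells also express, was not tested. In sorted bulk samples, more cells of another type and more RNA per cell cannot be told apart.

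The effect of the allele was set beside the light zone by an interaction term over all 14 libraries. No gene had a genotype effect that differed between the zones at an adjusted p under 0.05 (0 of 7999, 0%; smallest edgeR adjusted p 0.535), and 384 (4.8%) did at an unadjusted p under 0.05. In the light zone 0 genes (0%) were called and 785 (9.81%) had an unadjusted p under 0.05. C1qb had a log2 fold change of -0.39 in the light zone against 2.47 in the dark zone, a difference of 2.85 (edgeR unadjusted p = 0.00682, adjusted p = 0.991). For Klf2 the values were 0.66 and 1.65, for S1pr1 -0.43 and 1.89, and for Bcl6 -0.91 and -0.53. The SykY317F light zone libraries held 149641 to 379125 UMIs, fewer than any other library.

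The authors' deposited table of the same comparison lists 18 genes at an adjusted p under 0.05, 17 higher and 1 lower. In the authors' deposited table the smallest adjusted p is 0.00227, for Trim12c and C1qb, followed by 0.0100 for Klf2, Rps4l, Igfbp4, Cd3g and Pml. All 12 genes of smallest p among those higher here are in the authors' deposited table of called genes, and 15 of its 18 passed the filter on low counts used here. The p-values in the authors' deposited table differ from those of the DESeq2 fit here by a median of 2.36e-05, and Benjamini-Hochberg adjustment over all its p-values leaves 2 genes under 0.05. The way the deposited adjusted p-values were obtained is unknown here. The 18 genes and the 0 called by edgeR rest on similar fold changes for the leading genes: 2.51 in the authors' deposited table and 2.47 here for C1qb, and 1.66 and 1.65 for Klf2.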

How the data were processed

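Per the labels' protocols, RNA of sorted GC B cells was captured on oligo(dT) beads and made into libraries by a modified MARS-seq method, which tags each transcript's 3′ end. The deposited tables give UMI counts and read counts per gene; HTSeq, STAR 2.4.2a, cutadapt, DESeq, DESeq2 and mm10 are named, without parameters, in the submitters' processing notes. The authors also deposited normalized values (signal), log2 fold changes and p-values of their own comparisons, which were used only where named. Whether counting used strand is not given in the sources used here.

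UMI counts of all 14 libraries were fitted together with edgeR 4.0.16 (R 4.3.3; TMM scaling, filterByExpr, robust quasi-likelihood test, 4 group means), and SykY317F was contrasted with WT in the dark zone, with Benjamini-Hochberg adjustment over 7999 of 9969 genes, which held 99.3% of UMIs. CPM are on TMM-scaled library sizes. DESeq2 1.42.0 and limma 3.58.1 (voom), other scalings and filters, read counts, the 7 dark zone libraries alone, a replicate block and leaving out each library were alternatives. The fit was tested on simulated data. Promoter and protein sequences were not used; Syk was read from GENCODE vM21 on GRCm38.

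The libraries compared and the 35 gene lists were chosen with earlier results of these data known. Named genes were the 12 of smallest p in each direction, the 5 of smallest p in each direction at or above 100 CPM, up to 3 per list, those called by DESeq2, and a set of GC genes. Outside this rule, Alb, Apoe, Axl, B2m, Blnk, Btk, Cd3g, Cd68, Cd79a, Csf1r, Ctsl, Hells, Hmox1, Itgam, Lyz2, Ms4a7, Nr4a1, Plcg2, Rgs13, Scgb1a1, Sftpc and Vcam1 were named after their values were seen. Some genes that the rule takes are not reported here. Counting intervals cover counting error only.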

Additional observations from a re-analysis of the deposited data

Results flagged for a closer look

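Within the 4 WT dark zone libraries, 1 library stood apart from the other 3 in 6 named genes and 2 lists, by the gap to the nearest library as a share of the range. Pirb was low at 18.6 CPM, Gadd45g low at 24.6 CPM and Bmf high at 67.1 CPM in replicate 3. Cd72 was high at 357 CPM and Klf4 high at 6.23 CPM in replicate 4. Pcna was low at 211 CPM in replicate 2. The mean log2 CPM of MHC class II presentation, 8.97, and of glycolysis, 6.44, were high in replicate 5. These are 8 of 117 groups of values tested, and chance gives about 5%.

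Among groups of genes chosen after their values were seen, 3 gave signals above the level in WT dark zone libraries. Hepatocyte genes had 645 UMIs in SykY317F replicate 2, where WT libraries had 11 to 23. Mast cell genes had 288 UMIs in the same library, where WT libraries had 0 to 4. Airway and alveolar epithelium genes had 184 UMIs in SykY317F replicate 4, where WT libraries had 2 to 30.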

How the results depend on the processing

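The number of genes called was 0 in each direction under every alternative run except DESeq2's Wald test, which called 2 higher. The counts at an unadjusted p under 0.05 moved more: 582 higher and 635 lower with limma voom and quality weights, 365 higher with no filter on low counts, and 131 higher with read counts, for which 2240 genes had an interval within -1 to 1. Leaving out 1 library at a time gave 125 to 307 higher, 50 to 206 lower, 2362 to 3886 intervals within -1 to 1, and 0 genes called in the dark zone or between zones. The log2 fold change of Syk ran from -0.034 without SykY317F replicate 1 to 0.15 without WT replicate 2, and that of Irf4 from -0.091 without SykY317F replicate 2 to 1.63 without SykY317F replicate 1; the cause was not tested. With replicate numbers as a block, 146 genes were higher and 45 lower at an unadjusted p under 0.05 and 0 were called. Deviations of same-numbered dark zone libraries correlated at -0.02 (number 2) and -0.17 (number 4), and 8 of all 14 same-numbered pairs over both zones were above 0.1 (range -0.56 to 0.31). Since not every pair was, the numbers were not taken as pairs. The share of higher genes at an unadjusted p under 0.05 was 74.1% with TMM, 76.7% with DESeq2 size factors and 82.6% with library size alone. Interval counts were not run for DESeq2 and voom, and the zone difference was not run with the 7 dark zone libraries alone. Most genes under 30 CPM had intervals reaching beyond -1 or 1, and depth was lowest among dark zone libraries in SykY317F replicate 4.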
